A study of Mus musculus with 5 samples.

Results

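Chemokine ligand genes of NK cells (NKC) were described by the Runx3 and H3K4me1 peaks around them in IL-2-activated NKC. The set consisted of 6 genes, Ccl3, Ccl4, Ccl5, Ccl6, Ccl9 and Xcl1, of 22350 protein-coding genes of the GENCODE M1 annotation on the autosomes and chromosome X. They were chosen by name, and a peak belonged to a gene when it overlapped the gene or the 20 kb on either side of it by at least 1 bp. The peaks came from ChIP-seq of splenic NKC of ICR mice, isolated by negative selection and grown for 7 days in 1000 units/ml of human IL-2, which according to the labels were then all NKp46+. All 5 libraries came from cells treated in this way: 2 were precipitated with a polyclonal antibody against Runx3, 1 with a monoclonal antibody against H3K4me1 and 2 with non-immune rabbit serum (NIS) as control. The authors joined the reads of each antibody before calling peaks against NIS, and the lists give nothing but where each peak lies. They hold no heights, depths or values per library, so the values below are counts and positions without a replicate error or a test. The H3K4me1 list rests on 1 library. The lists do not measure RNA, so whether the 6 genes were transcribed in these cells was not examined here. Of 7 NKC marker genes, 7 had Runx3 and H3K4me1 peaks, with Ncr1, Klrk1, Eomes, Prf1 and Gzmb holding their transcription start site (TSS) in a Runx3 peak, while the myeloid markers Lyz2 and Cebpa and the T cell marker Cd8a had neither kind of peak. Some markers of other cells did have Runx3 peaks, 2 of 3 for T cells, 2 of 3 for B cells and 1 of 4 for myeloid cells. H3K4me1 peaks were at 2 of 3 for T cells, 3 of 3 for B cells and 2 of 4 for myeloid cells. Of these 10 genes, 0 had the TSS in a Runx3 peak. Among all protein-coding genes, 41.1% had a Runx3 peak, 51.1% an H3K4me1 peak and 9.36% the TSS in a Runx3 peak.

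Chemokines are small secreted proteins that draw leukocytes along a gradient by binding G protein-coupled receptors. Ccl3 (MIP-1α), Ccl4 (MIP-1β) and Ccl5 (RANTES) are CC chemokines that attract T cells, monocytes and NKC; Ccl6 and Ccl9 are rodent CC chemokines that act through Ccr1 and are best known from myeloid cells; Xcl1 (lymphotactin) binds Xcr1 on cross-presenting dendritic cells and is a typical product of activated NKC and CD8+ T cells. Runx3 is a transcription factor of cytotoxic lymphocytes that binds the RUNX motif, and H3K4me1, the monomethylation of lysine 4 of histone H3, marks enhancers and is usually low at the TSS of active genes.

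Of the 6 genes, 3 had their TSS inside a Runx3 peak, as had 9.36% of protein-coding genes (2093 of 22350), and their promoter sequences are shown first because they differed in whether that peak held a RUNX motif next to the TSS. Each line holds the 250 bases before the TSS in the direction of transcription, read from the mm9 assembly (NCBIM37), at chr11:83462858-83463107 on the minus strand for Ccl3, chr11:83475836-83476085 on the plus strand for Ccl4 and chr1:166865659-166865908 on the minus strand for Xcl1. Capitals mark the RUNX motif (TGTGGT or TGTGGC or TGCGGT or TGCGGC) or its reverse complement.
Ccl3: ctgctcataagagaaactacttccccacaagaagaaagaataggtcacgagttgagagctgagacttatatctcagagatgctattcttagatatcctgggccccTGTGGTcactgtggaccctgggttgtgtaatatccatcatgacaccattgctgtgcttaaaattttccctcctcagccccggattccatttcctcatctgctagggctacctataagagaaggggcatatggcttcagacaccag
Ccl4: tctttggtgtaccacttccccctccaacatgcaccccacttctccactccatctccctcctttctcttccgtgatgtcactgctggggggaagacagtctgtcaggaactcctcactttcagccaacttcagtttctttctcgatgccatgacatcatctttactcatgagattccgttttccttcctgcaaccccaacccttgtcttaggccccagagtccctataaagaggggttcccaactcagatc
Xcl1: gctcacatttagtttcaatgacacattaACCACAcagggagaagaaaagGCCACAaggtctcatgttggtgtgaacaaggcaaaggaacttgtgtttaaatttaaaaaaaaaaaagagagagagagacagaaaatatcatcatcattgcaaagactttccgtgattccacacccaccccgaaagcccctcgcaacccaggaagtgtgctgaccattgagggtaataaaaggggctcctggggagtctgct
The Ccl3 promoter held 1 RUNX motif, TGTGGT in the direction of the gene, whose first base lay 145 bp before the TSS. The Xcl1 promoter held 2, both on the opposite strand, TGTGGT starting 222 bp and TGTGGC starting 201 bp before the TSS, so that the sites began 21 bp apart. The Ccl4 promoter held none, although all 250 of its bases lay in a Runx3 peak, as they did for Ccl3 and Xcl1. Of the genes without a peak at the TSS, Ccl9 had 1 RUNX motif (TGTGGC, 123 bp before the TSS), and Ccl5 and Ccl6 had 0. Of all protein-coding promoters of this length, 37.5% held a RUNX motif.

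All 6 genes had at least 1 Runx3 peak, against 41.1% of protein-coding genes (9193 of 22350), and all 6 had at least 1 H3K4me1 peak, against 51.1%. Long genes have longer windows, and the longest of the 6 was 5718 bp. Among the 6363 protein-coding genes no longer than that, 26.0% had a Runx3 peak and 35.3% an H3K4me1 peak. The genes differed widely in number. Ccl3 had 8 Runx3 peaks, Ccl5 had 5, Ccl4 had 4, Xcl1 had 2, and Ccl6 and Ccl9 had 1 each. The number at Ccl3 was reached or passed by 38 protein-coding genes (0.170%), and by 1 gene, Ccl3 itself, among those of at most 5718 bp (0.0157%). These numbers and their order held for flanks of 20 kb: with 10 kb Ccl3 had 5, Ccl5 had 4 and Ccl4 had 3, and with 5 kb Ccl3 had 1 and Ccl4 and Ccl5 had 2 each. As many as at Ccl5 were found at 1.54% of protein-coding genes (0.314% of the short ones), as many as at Ccl4 at 3.23% (0.990%) and as many as at Xcl1 at 18.1% (9.96%), while the single peak of Ccl6 and Ccl9 was no more than what 41.1% of genes had. Windows overlapped, so these counts were not independent: Ccl3 and Ccl4 shared 4 Runx3 peaks, which were all that Ccl4 had, and Ccl6 and Ccl9 shared their only peak.

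**Figure D1:**
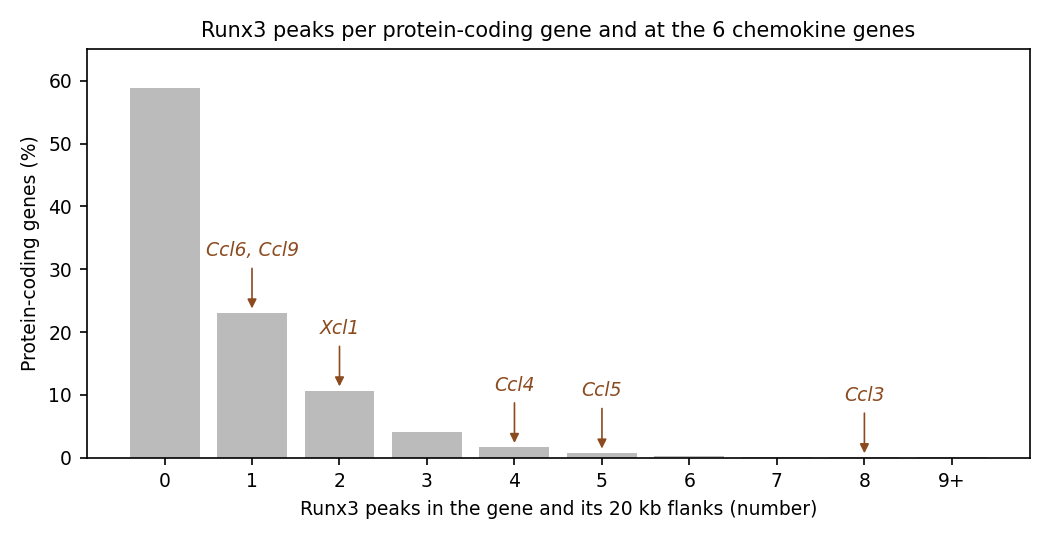
Share of 22350 protein-coding genes (bars, percent) by the number of Runx3 peaks in the gene and its 20 kb flanks, with arrows at the bars in which the 6 chemokine genes fall. Ccl6 and Ccl9 stood at 1 peak, Xcl1 at 2, Ccl4 at 4, Ccl5 at 5 and Ccl3 at 8, where the bar is too low to be seen.

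Without the shared ones counted again, the 6 windows held 16 Runx3 peaks, numbered here by position, with peaks 1 to 14 on chromosome 11 and peaks 15 and 16 on chromosome 1. They held 27 H3K4me1 peaks. The genes on chromosome 11 spanned 139 kb, in the order Ccl5, Ccl9, Ccl6, Ccl3 and Ccl4, and Ccl4 alone was transcribed in the plus direction. TSSs of neighbours lay 48.1 kb apart from Ccl5 to Ccl9, 14.5 kb from Ccl9 to Ccl6, 56.3 kb from Ccl6 to Ccl3 and 13.2 kb from Ccl3 to Ccl4. The Runx3 peaks fell into 2 groups at the ends of the cluster. Peaks 1 to 6 ran from Ccl5 to the region below Ccl9, peaks 7 to 14 lay round Ccl3 and Ccl4, and the 58.7 kb between peak 6 and peak 7 held 0 Runx3 peaks. That empty stretch contained the whole of Ccl9 and Ccl6. Of the 40-base words in it, 40 being the length of the reads, 94.8% occur once in the genome, so reads could be placed over nearly all of it.

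Ccl3 (ENSMUSG00000000982.5, chr11:83461346-83462857, minus strand, 1512 bp) and Ccl4 (ENSMUSG00000018930.3, chr11:83476086-83478185, plus strand, 2100 bp), the genes of MIP-1α and MIP-1β, are transcribed away from each other. Both TSSs lay inside a Runx3 peak and inside an H3K4me1 peak. A TSS in an H3K4me1 peak was found for 2.72% of protein-coding genes, and a TSS in both for 37 genes (0.166%), 2 of which were Ccl3 and Ccl4. Of the 2093 genes with the TSS in a Runx3 peak, 1.77% had it in an H3K4me1 peak as well. This count of TSSs inside both was chosen after seeing the data.

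Peak 11 (chr11:83462343-83463469) was the widest of the 16, with 1127 bp, and its centre lay 49 bp upstream of the Ccl3 TSS. H3K4me1 covered 40.0% of it, in a mark of 451 bp at chr11:83462578-83463028 that reached from the gene into the promoter and covered 171 of its 250 bases. Peak 14 (chr11:83475479-83476259, 781 bp) had its centre 217 bp upstream of the Ccl4 TSS, and 70.4% of it was covered by H3K4me1. The whole Ccl4 promoter lay in both peaks. Peaks 12 and 13 lay between these genes. Peak 13 (chr11:83470873-83471527), 4886 bp upstream of the Ccl4 TSS, was wholly inside the widest H3K4me1 peak of the 6 windows, of 1928 bp. Peak 12 (chr11:83468000-83468706), 5496 bp upstream of the Ccl3 TSS, had no H3K4me1 on it, with the nearest mark 1236 bp away. The 13.2 kb from one TSS to the other thus held 4 Runx3 peaks and 4 H3K4me1 peaks, which covered 19.5% and 22.5% of it.

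On the other side of Ccl3, the 20 kb downstream of the gene held 4 Runx3 peaks and 6 H3K4me1 peaks. Peaks 7 and 8 were 146 bp apart, 20356 and 19425 bp downstream of the Ccl3 TSS, and differed in the mark: peak 8 (chr11:83443070-83443795) was covered by H3K4me1 over 100% of its width and peak 7 (chr11:83442079-83442923) over 0%, with the mark 83 bp away. Peaks 9 and 10 were 378 bp apart, 10127 and 9020 bp downstream, with 92.1% and 56.0% under H3K4me1. The 20 kb downstream of Ccl4 held 0 Runx3 peaks and 1 H3K4me1 peak, and 96.5% of that stretch was unique at 40 bases. Runx3 peaks covered 15.2% of the Ccl3 window and 7.77% of the Ccl4 window, and H3K4me1 peaks covered 21.3% and 9.82%. Of the 8 Runx3 peaks of Ccl3, 6 overlapped an H3K4me1 peak, as did 3 of the 4 of Ccl4. An overlap of this kind was present at 20.5% of protein-coding genes. The 11 H3K4me1 peaks at Ccl3 were reached by 3.74% of protein-coding genes and the 5 at Ccl4 by 15.9%.

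Ccl5 (ENSMUSG00000035042.2, chr11:83339280-83344020, minus strand, 4741 bp), which encodes RANTES, had many peaks and none at its TSS. The nearest edge of a Runx3 peak was 2924 bp and that of an H3K4me1 peak 730 bp away, and none of the 250 bases of the promoter lay in either. Peak 1 (chr11:83340630-83341096) lay inside the gene, in an intron, 3157 bp downstream of the TSS. It was the narrowest of the 16, with 467 bp, and lay wholly under H3K4me1. The other 4 peaks were upstream, at 4497, 6593, 8565 and 19870 bp from the TSS to the peak centre. H3K4me1 was dense there: 7 peaks lay in the 10.5 kb of chr11:83344750-83355215 and covered 67.9% of it. Of the 3 Runx3 peaks in that stretch, peak 4 (chr11:83352199-83352972) was covered over 100% of its width. Peak 3 (chr11:83350272-83350955) was covered over 10.5%. Peak 2 (chr11:83348069-83348965), with 0%, lay in a gap between marks, whose edges were 608 bp away on one side and 77 bp on the other. Peak 5 (chr11:83363454-83364326), near the end of the window, touched H3K4me1 peaks on both sides and was covered over 18.1%. Downstream of Ccl5, 20 kb held 0 Runx3 peaks and 0 H3K4me1 peaks. In all, 10 H3K4me1 peaks were in the Ccl5 window, as many as at 4.64% of protein-coding genes, and 4 of its 5 Runx3 peaks overlapped a mark.

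Ccl6 (ENSMUSG00000018927.3, chr11:83401384-83406589, minus strand, 5206 bp) and Ccl9 (ENSMUSG00000019122.7, chr11:83386421-83392138, minus strand, 5718 bp), the genes of the Ccr1 ligands, had neither a Runx3 peak nor an H3K4me1 peak in the gene itself. Their shared Runx3 peak, peak 6 (chr11:83382274-83383368, 1095 bp), was 9317 bp downstream of the Ccl9 TSS and 23768 bp downstream of the Ccl6 TSS. It lay wholly under an H3K4me1 peak of 1642 bp and held more RUNX motifs than any other of the 16, with 6. Ccl9 had a second mark of 536 bp next to its promoter, with its edge 319 bp upstream of the TSS and 0 Runx3 peaks under it, and beyond it 50 kb held no H3K4me1 peak. Ccl6 had no mark closer than 13597 bp to its TSS. Its 2 H3K4me1 peaks were matched by 36.8% of protein-coding genes, and the 3 of Ccl9 by 27.7%. Runx3 covered 2.42% of the Ccl6 window and 2.40% of the Ccl9 window, the lowest shares of the 6 genes. Ccl9 was also the gene of the cluster on chromosome 11 with the least unique window (89.0% at 40 bases), while 99.0% was unique within 500 bp of its TSS.

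Xcl1 (ENSMUSG00000026573.7, chr1:166861775-166865658, minus strand, 3884 bp), the lymphotactin gene, stood alone on chromosome 1, with the nearest protein-coding genes Dpt and Tbx19 at 107 kb and 202 kb. Peak 15 (chr1:166865570-166866235, 666 bp) covered the TSS, with its centre 244 bp upstream. Here the mark was displaced: the H3K4me1 peak began 267 bp upstream of the TSS, covered 46.7% of peak 15 and left the TSS and the whole promoter uncovered, unlike at Ccl3 and Ccl4. Peak 16 (chr1:166883530-166884239, 710 bp), 18226 bp upstream, lay under H3K4me1 over 97.7% of its width. The 20 kb downstream of Xcl1 held 0 peaks of either kind. The Xcl1 window was the least unique of the 6, at 84.2%, so part of it could not take reads, whereas the 500 bp on either side of the TSS were 100% unique. Like Ccl9, it had 3 H3K4me1 peaks, as many as 27.7% of protein-coding genes. Runx3 peaks covered 3.14% and H3K4me1 peaks 4.30% of the window.

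**Figure D2:**
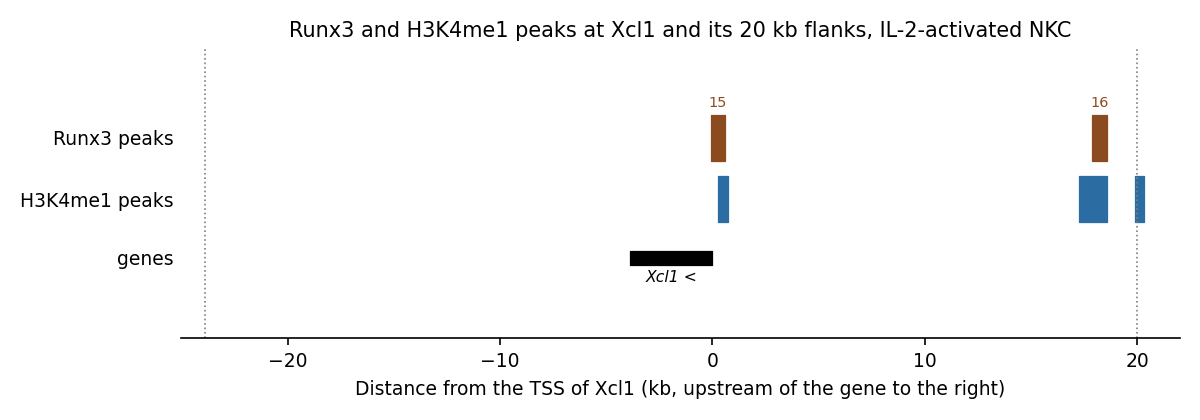
Runx3 peaks 15 and 16 (brown), H3K4me1 peaks (blue) and the Xcl1 gene (black, transcribed to the left) by distance in kb from the Xcl1 TSS, with dotted lines at the ends of the 20 kb flanks. Peak 15 covers the TSS, the H3K4me1 peak beside it starts 267 bp upstream, and nothing was called downstream of the gene.

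Across the 16 Runx3 peaks, 13 (81.2%) overlapped an H3K4me1 peak, where 48.4% of all 11676 Runx3 peaks did, and 10 had their centre inside one, where 28.2% of all did. Peaks 2, 7 and 12 overlapped none. These shares were not matched for distance to a TSS, and no share for distal peaks alone was taken. Of the 16 peaks, 13 had their centre over 1 kb from a protein-coding TSS. Of genes with the TSS in a Runx3 peak, 1.77% had it in an H3K4me1 peak as well. Seen from the mark, 13 of 27 H3K4me1 peaks (48.1%) overlapped a Runx3 peak, against 19.9% of the 34204 in the list. Widths ran from 467 to 1127 bp with a median of 736 bp, and 12 of 16 were wider than the median of the whole list, 704 bp. Only peaks 11, 14 and 15 had their centre within 1 kb of a protein-coding TSS. The median distance was 7579 bp, and 10 peaks were over 5 kb away. Distances were not taken for the whole list, so whether these are usual for Runx3 peaks was not examined. The peaks were 99.9% to 100% unique at 40 bases.

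**Figure D3:**
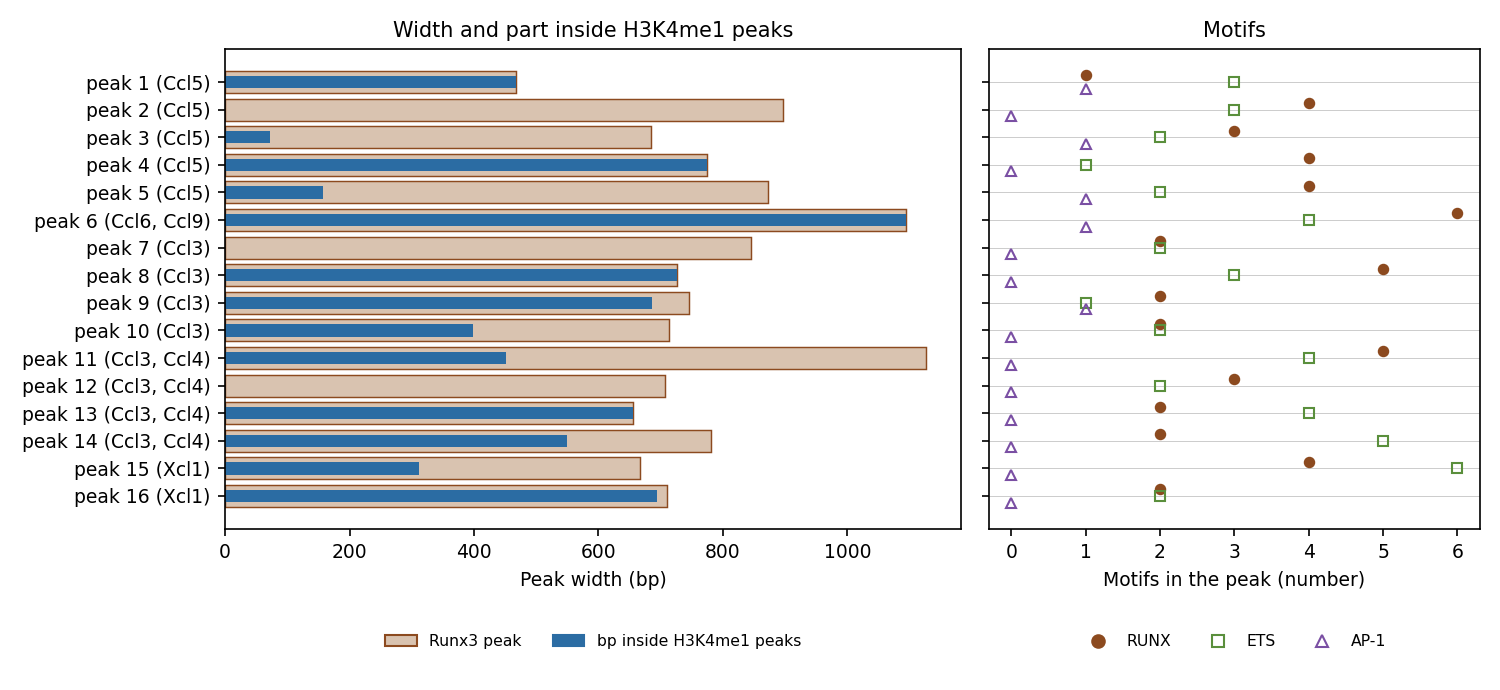
Left, width in bp of the 16 Runx3 peaks (light bars) and the bp of each inside H3K4me1 peaks (blue), with the genes whose windows hold the peak. Right, the number of RUNX, ETS and AP-1 motifs in each peak, drawn above, on and below the line of the peak. Peaks 2, 7 and 12 have no blue part, and every peak has at least 1 RUNX and 1 ETS motif.

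The sequence under the peaks is shown for 6 of the 13 that lay away from a TSS. They were picked after their sequences were seen, as those with TGTGGT closest to the peak centre, to show the motif in its surroundings. Each line gives the RUNX motif nearest the peak centre, in capitals, with 20 bases on either side. The positions on mm9 were chr11:83363877-83363922 for peak 5 (Ccl5, minus strand), chr11:83382766-83382811 for peak 6 (Ccl6 and Ccl9, plus strand), chr11:83442492-83442537 for peak 7 (Ccl3, minus strand), chr11:83452724-83452769 for peak 9 (Ccl3, minus strand), chr11:83468370-83468415 for peak 12 (Ccl3 and Ccl4, minus strand) and chr1:166883842-166883887 for peak 16 (Xcl1, plus strand), all outside annotated exons.
peak 5: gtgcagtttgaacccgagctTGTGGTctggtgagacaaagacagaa
peak 6: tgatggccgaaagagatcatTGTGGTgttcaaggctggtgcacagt
peak 7: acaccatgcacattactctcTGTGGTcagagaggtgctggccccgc
peak 9: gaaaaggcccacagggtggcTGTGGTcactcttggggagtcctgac
peak 12: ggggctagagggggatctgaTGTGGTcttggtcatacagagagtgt
peak 16: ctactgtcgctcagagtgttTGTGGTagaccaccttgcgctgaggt
The motif lay 9 to 39 bp from the peak centre in these 6, which their choice set. In the other 7 the nearest motif was 19 to 221 bp away, and it was TGTGGC in peaks 8, 10 and 13. All 16 peaks held a RUNX motif, where 96.0% of all Runx3 peaks did, with 51 sites among them or 4.09 per kb, against 4.14 per kb in the whole list. The median distance from the centre to the nearest site was 42 bp, and it was within 100 bp in 14 peaks. A whole RUNX motif lay in the central 200 bp of 13 peaks, where 77% of all Runx3 peaks had one. Every one of the 16 contained TGTGGT, which 75.9% of all Runx3 peaks contained, with 2.65 sites per kb against 2.12. TGTGGC was in 10 peaks (57.7% of all), TGCGGT in 2 (21.8%) and TGCGGC in 2 (19.2%). In the paper TGTGGT and TGTGGC were commoner in enhancer peaks, and TGCGGT and TGCGGC in promoter peaks. The shares of all peaks given here were not matched for distance to a TSS. In 8 peaks at least 2 RUNX motifs lay within 50 bp of each other. The share of all Runx3 peaks with such a pair was not counted, so whether 8 of 16 is usual was not examined. Numbers ran from 1 site in peak 1 of Ccl5 to 6 in peak 6. The 3 peaks without H3K4me1 held 4, 2 and 3 RUNX motifs, within the range of the marked ones.

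Motifs of other factors of activated lymphocytes were searched on both strands as well. ETS (AGGAAA or AGGAAG or CGGAAA or CGGAAG) was in all 16 peaks, where 91.4% of all Runx3 peaks held it, at 3.69 sites per kb against 3.93, and in 58.1% of all 250-base promoters. The Xcl1 TSS peak had most, with 6. AP-1 (TGACTCA or TGAGTCA) was in 5 peaks (26.2% of all, 3.86% of promoters), with 1 site each in peaks 1, 3 and 5 of Ccl5, peak 6 and peak 9, and in none of the peaks at a TSS. NFAT (TGGAAA) was in 7 (44.8% of all, 18.1% of promoters). Whole peaks are mostly longer than the 250-base promoters, so shares of peaks and of promoters are not matched for length. In the central 200 bp, ETS was in 10 of the 16 peaks (58.9% of all), NFAT in 2 (13.3%) and AP-1 in 1 (12.6%). STAT (TTCNNNGAA), the site of the factors that IL-2 activates, was in 7 (21.6% of all, 6.83% of promoters), with 10 sites or 0.802 per kb against 0.334, but in the central 200 bp of 1 peak only, where 6.66% of all peaks had it. T-box (GGTGTGA), the site of Tbx21 and Eomes, was in 4 peaks, 8, 13, 14 and 15 (15.7% of all, 3.19% of promoters). All 4 had a site in the central 200 bp, where 6.38% of all peaks had one. Peak 14 had 2 sites, 91 and 211 bp from its centre. With 16 peaks these shares are coarse, and a match describes the letters only, not binding by the factor.

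The T-box motifs of peaks 8 and 14 are shown because RUNX motifs lay within 10 bp of them. Capitals mark both motifs, with peak 8 read on the minus strand at chr11:83443392-83443458 and peak 14 at chr11:83475625-83475691 (minus strand) and chr11:83475745-83475811 (plus strand).
peak 8: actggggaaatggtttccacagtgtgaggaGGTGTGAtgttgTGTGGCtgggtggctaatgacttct
peak 14: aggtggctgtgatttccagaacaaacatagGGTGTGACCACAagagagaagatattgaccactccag
peak 14: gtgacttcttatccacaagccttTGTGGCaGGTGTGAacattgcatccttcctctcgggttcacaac
In peak 8 the motifs were 5 bp apart. In the first line of peak 14 the T-box motif and the reverse complement of TGTGGT shared a base, as GGTGTGACCACA. That T-box site lay 211 bp from the peak centre, outside the central 200 bp. In the second line TGTGGC and the T-box motif had 1 base between them. The distance was 42 bp in peak 13 and 12 bp in peak 15 of Xcl1, where the T-box motif is the ggtgtga that follows the second capitals of the promoter printed above. Of the 1835 Runx3 peaks with a T-box motif in the whole list, 341 (18.6%) had a RUNX motif within 10 bp of it, and 2 of the 4 here did. The limit of 10 bp was chosen after seeing the data.

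Of 36 chemokine ligand genes listed, 33 were found once in the annotation, and 12 of these (36.4%) had a Runx3 peak, 15 (45.5%) an H3K4me1 peak and 18 neither. Of all protein-coding genes 41.1% had a Runx3 peak and 51.1% an H3K4me1 peak. Among those of at most 5718 bp the shares were 26.0% and 35.3%. With the 6 genes described here included, the family lay between these backgrounds. Without them, 6 of 27 (22.2%) had a Runx3 peak and 9 (33.3%) an H3K4me1 peak, below both backgrounds. Those with a Runx3 peak were Ccl1 (5), Ccl17 (2), and Ccl26, Cxcl16, Cxcl17 and Cx3cl1 (1 each). Of the 27, 0 had the TSS in a Runx3 peak, against 9.36% of protein-coding genes. Cx3cl1, Cxcl17 and Ccl1 had 8, 6 and 16 H3K4me1 peaks. The number at Ccl1, a ligand of Ccr8, came from a very long gene model, chr11:81990159-82119192. The nearest Runx3 peak was 91061 bp from the TSS of that model, its end at 82119192. Distances from the other end or from shorter transcripts were not taken, so this value does not show that Ccl1 lacks a nearer peak. Receptor genes were examined as well. Ccr3, which binds Ccl5, had 3 Runx3 peaks and 2 H3K4me1 peaks. Xcr1, the receptor of Xcl1, had 2 and 3, and Ccr1 had 0 and 1. Of these 3 receptor genes, 0 had the TSS in a Runx3 peak.

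**Figure D4:**
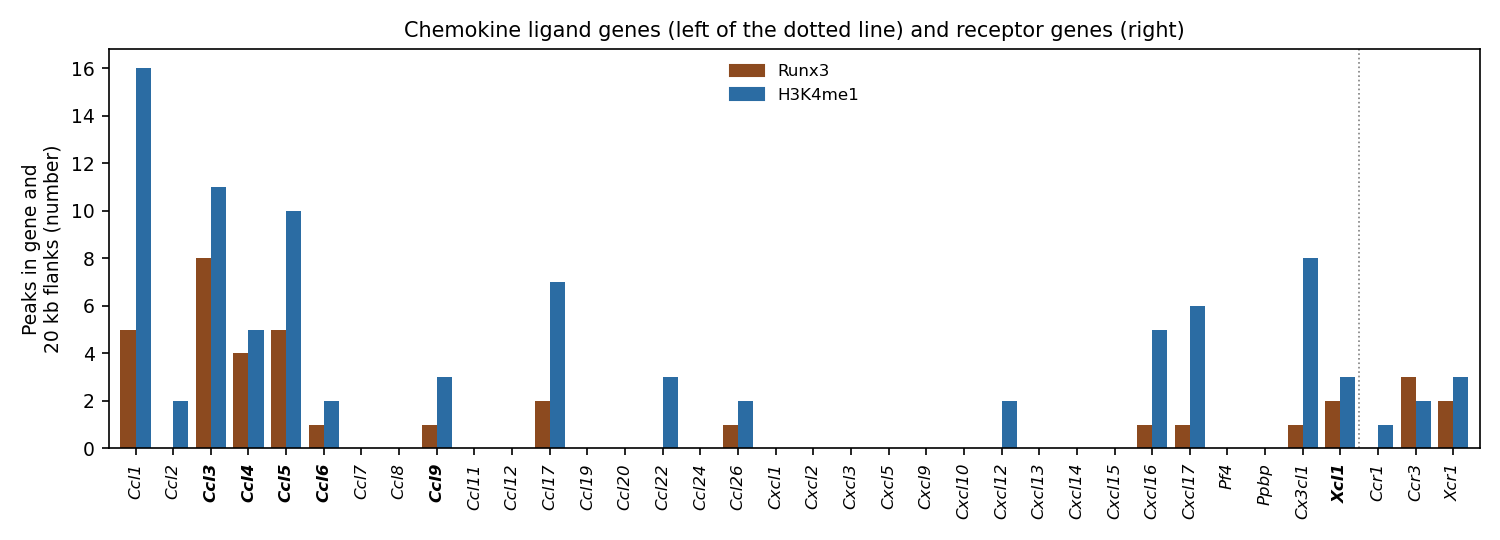
Number of Runx3 (brown) and H3K4me1 (blue) peaks in the gene and its 20 kb flanks for 33 chemokine ligand genes, the 6 described here in bold, and for 3 receptors to the right of the dotted line. At these flanks Ccl3 has the most Runx3 peaks, 8, and 18 of the 33 ligands have no peak of either kind.

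Genes that are not chemokines also reach into the windows. Taf15, Gm11435 and a U6 snRNA lie in the Ccl5 window, the lincRNA E230016K23Rik in those of Ccl6 and Ccl9, Rpl9-ps1 in those of Ccl3 and Ccl4, and the pseudogenes Gm11433 and Gm11438 in that of Ccl4. None of these 7 had a Runx3 peak in the gene. For Ccl3, the gene with the most Runx3 peaks at flanks of 20 kb, the coverage by both kinds of peak in 1 kb bins over 20 kb on either side of the TSS, 80 values in all, was compared with that of 11105 protein-coding genes. The closest patterns by cosine similarity, which is 1 for equal patterns, were those of Arid3c (0.617), Ninj2 (0.608) and Hspa5 (0.585). Likeness was moderate, and Arid3c came first with 5 H3K4me1 peaks and 0 Runx3 peaks in its window, so the pattern it shared with Ccl3 was that of the mark.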

How the data were processed

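ChIP-seq was done by the authors on cultured NKC, with 40-base reads aligned to mm9 by ELAND. Uniquely aligned reads were joined by antibody and peaks were called with MACS against NIS. The deposited lists give positions in bp and no score, so depth per sample and its precision are not given here. All 5 libraries were grouped by their titles. Microarrays, CD8-TC and resting NKC were not analysed here.

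The 6 genes, the ligand, receptor and marker lists and the motifs were chosen with earlier results of these data known. Starts, counted from 0 in the lists, are given from 1. Genes and TSSs (the first base of the gene model) were those of GENCODE M1, and sequence that of the same build, NCBIM37. The genes named were the 6, those reaching into their windows, listed ligands and receptors with a Runx3 peak, and the 3 closest patterns to Ccl3, leaving out genes within 100 kb of it. The cosine was taken over 1 kb bins. Ligands not found once, Ccl25, Ccl28 and Cxcl11, were left out, and 1 listed gene is not reported here. A 40-base word was called unique when it occurred once in the genome on either strand. Overlaps and motif searches were checked on simulated data. No test was run, since the lists hold no values per library. Alternatives were other flanks, peak centres, wide peaks only, other rules for genes and overlaps, and other gene sets. Calculations used python 3.11.15, numpy 2.4.6, pysam 0.24.0, samtools 1.23.1 and matplotlib 3.10.9.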

Additional observations from a re-analysis of the deposited data

How the results depend on the processing

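The number of genes with a Runx3 peak was 6 of 6 at 20 kb flanks and 5 with the peak given to the nearest TSS or with shorter flanks. Counts depended mainly on the flank. With flanks of 5 kb the windows held 7 Runx3 peaks, 6 of them with H3K4me1, and 11 H3K4me1 peaks, and with 10 kb 17 H3K4me1 peaks. By gene, Ccl3 had 1 Runx3 peak at 5 kb and 5 at 10 kb, Ccl4 had 2 at 5 kb and 8 at 50 kb, Ccl5 had 2 at 5 kb, Ccl6 had 0 at 5 and 10 kb and 7 at 50 kb, Ccl9 had 7 at 50 kb, and Xcl1 had 1 at 5 and 10 kb and 4 at 50 kb. With Runx3 peaks at least as wide as the median, Ccl5 had 3 and Xcl1 had 1. Given to the nearest TSS, Ccl4 had 2 peaks, Ccl6 had 0 and Xcl1 had 4, and with GREAT domains (basal 5 and 1 kb, extended to at most 1000 kb) Ccl6, Ccl9 and Xcl1 had 4 each. Ccl3, first at 20 kb, was level with Ccl4 at 50 kb (8 each) and with Ccl5 under GREAT domains (6 each). The share of protein-coding genes with a Runx3 peak was 28.8%, 33.5% and 55.4% with flanks of 5, 10 and 50 kb, 27.7% with wide peaks and 26% among genes no longer than 5718 bp, and 32.9% over all annotated genes. For H3K4me1 these shares were 39.8%, 44.5% and 62% by flank, 35.3% among short genes and 41.9% over all genes. The other 52 of 87 values moved by less than 1.5 times or less than the counting error. Each change follows from the window, the list or the rule that makes the alternative.

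No paired analysis was possible because the reads of the libraries were joined before peaks were called, which also left no fit without a replicate. The lists hold no height, depth or value per library, so a stretch without a peak is one in which none was called, not one shown to be unbound. Peaks that barely passed the threshold of the authors cannot be told from strong ones. The H3K4me1 list rests on 1 library.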

Other observations

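Beyond the 20 kb flanks, Xcl1 had 2 more Runx3 peaks upstream for which it was the nearest protein-coding gene. They were at chr1:166890163-166890718, 24782 bp from the TSS, with 1 RUNX motif and no H3K4me1 peak, and at chr1:166896016-166896780, 30740 bp from the TSS, with 3 RUNX motifs and 1 H3K4me1 peak. With them, 4 Runx3 peaks lay in the stretch between the Xcl1 TSS and the second of these, and 3 of the 4 overlapped H3K4me1.

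The 37 protein-coding genes whose TSS lay in both a Runx3 and an H3K4me1 peak, Ccl3 and Ccl4 among them, also contained Cd244 and Klra1, which encode receptors of NKC, Il21r, which encodes a cytokine receptor, and Cish, a target of IL-2 signalling. These 4 were named after their values were seen, and the list was not tested for any theme. It also held genes such as Bank1, Mcpt8, Mylpf, Foxb2 and Rps10, so the 4 do not describe it as a whole.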
